A study of Mus musculus with 6 samples.

Results

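The genes described here are 8 that make, remodel or move phospholipids, found by their symbols among the 20673 genes of the deposited tables: Chka, Etnk2, Pcyt1a, Pcyt2, Cept1, Ptdss2, Lpcat3 and Mfsd2a. They were chosen by function, with earlier results of these data known, and all 8 had enough counts to be tested. The tissue was whole liver of C57BL/6J mice that had eaten either a regular diet (RD, 3 livers) or a high-cholesterol diet (HCD, 3 livers) for 3 days, with 1 RNA library for each mouse and no surgery. The HCD held cholesterol, cocoa butter and sodium cholate, a bile salt, so these components cannot be told apart. The paper also reports modestly lower food intake with HCD before surgery, which cannot be told apart from them either. The labels give neither the age nor the sex of a mouse, and no batch. These livers were 1 part of a study of cholesterol and survival in sepsis, and served to find which liver transcripts differ after the diet.

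Membrane phospholipids are made mainly from choline and ethanolamine through the parallel branches of the Kennedy pathway. A kinase adds phosphate to the base, a cytidylyl transferase turns the product into CDP-choline or CDP-ethanolamine, and a transferase joins it to diacylglycerol. In liver, phosphatidylcholine is also made by methylation of phosphatidylethanolamine, is exported in bile and covers secreted lipoproteins. Its fatty acids are exchanged after synthesis by the Lands cycle, in which a lysophospholipid takes up a new acyl chain.

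The RD libraries held 13771630 to 23129576 counts and the HCD libraries 13935491 to 18545549. HCD replicate 1 stood apart, with 5032 counts of Xist, the RNA of the inactive X chromosome, and 0 counts of 4 Y-linked genes, whereas the other 5 livers had 0 counts of Xist and 1075 to 2666 of the Y-linked genes. By these counts that liver came from a female and the other 5 from males, so only the HCD group held a female. The diet difference of each of the 8 enzymes is therefore also given without that liver. Markers of hepatocytes summed to 96780 to 121400 with RD, as counts scaled to 1000000 per library (CPM), and 97860 to 123500 with HCD. Markers of Kupffer cells, the macrophages of the liver, summed to 120.3 to 193.6 CPM with RD and 143.1 to 389.9 with HCD. Those of red blood cells summed to 143.3 to 237.8 CPM with RD and 188.3 to 457.7 with HCD, and those of stellate cells to 200.6 to 220.7 and 203.6 to 361.6. The sums of leukocyte markers were 7.19 to 11.6 CPM with RD and 8.90 to 16.9 with HCD, those of endothelial markers 118.4 to 188.0 and 127.5 to 230.0, and those of cholangiocyte markers 37.4 to 96.2 and 70.3 to 87.3. No marker was at 0 counts in all 6 livers. Log2 differences were above 0 for 3 of 8 hepatocyte, 8 of 8 Kupffer cell, 8 of 8 stellate cell, 6 of 8 endothelial, 5 of 6 cholangiocyte, 4 of 4 leukocyte and 4 of 5 red blood cell markers with enough counts. Of all these markers, Cd68 (log2 difference 1.24, adjusted p = 0.0277), Hba-a1 (2.41, adjusted p = 0.0217) and Hbb-bs (2.28, adjusted p = 0.0223) passed the edgeR test, each higher with HCD. What part other cells had in the values below was not tested. In whole tissue, fewer cells of a type and less RNA per cell cannot be told apart.

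Levels of different genes were compared as FPKM, fragments per kilobase of exon and per 1000000 of a library total. Under RD the enzymes spanned from Pcyt2, at 147.0 ± 7.67 FPKM (SD, n = 3), down to Ptdss2, at 2.60 ± 0.204. Pcyt2 is the ethanolamine cytidylyl transferase and was also the highest of the 8 in every HCD liver, with a mean of 109.2 ± 15.4. Etnk2, an ethanolamine kinase that is abundant in liver, was next, at 80.8 ± 19.4 FPKM with RD and 61.3 ± 20.6 with HCD. Lpcat3, the acyltransferase that places polyunsaturated chains into lysophosphatidylcholine, followed at 36.8 ± 5.61 and 55.0 ± 3.52. Under RD each of the 3 livers had more Etnk2 than Lpcat3, whereas this order held in 2 of the 3 HCD livers and the ranges overlapped. Cept1, which uses both CDP-choline and CDP-ethanolamine, lay at 29.3 ± 1.30 FPKM with RD and 36.7 ± 9.46 with HCD, below Lpcat3 in every liver of both diets.

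Lower in that order, the ranks depended on the diet. With RD, Pcyt1a, the choline cytidylyl transferase that limits the rate of the choline branch, stood at 11.8 ± 1.25 FPKM and Chka, the choline kinase, at 10.7 ± 2.46, and their ranges overlapped. With HCD, Chka stood at 18.9 ± 5.05 FPKM and Pcyt1a at 10.1 ± 1.63, with Chka higher in all 3 livers and no overlap. Mfsd2a, the sodium-dependent carrier of lysophosphatidylcholine, had 4.48 ± 2.66 FPKM with RD, where its range overlapped that of Ptdss2, and 20.9 ± 10.03 with HCD, where it overlapped those of Cept1, Chka and Pcyt1a. Ptdss2, which makes phosphatidylserine from phosphatidylethanolamine, was lowest with HCD as well, at 2.78 ± 0.255 FPKM. FPKM divides by the merged exons of a gene, 12024 bases for Chka against 2250 for Mfsd2a, so a gene whose liver transcript is shorter than its merged exons reads too low.

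**Figure D1:**
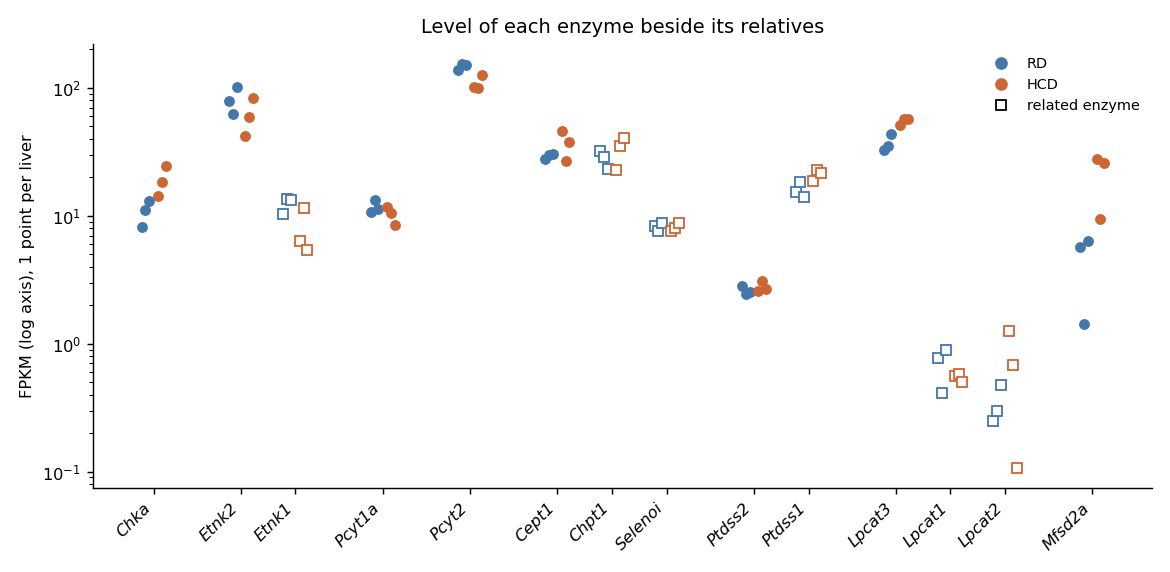
FPKM on a log axis in each of the 6 livers for the 8 enzymes (filled circles) and their related enzymes (open squares), with RD in blue and HCD in orange. By their diet means Pcyt2 and Etnk2 lie highest and Ptdss2 lies lowest of the 8, although Etnk2 lies below Lpcat3 and Cept1 in HCD replicate 1 and Mfsd2a below Ptdss2 in RD replicate 2, and Lpcat1 and Lpcat2 lie far below Lpcat3. Chkb and Pcyt1b are not drawn because they had 0 counts in at least 1 liver.

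Set beside their relatives, most of these enzymes were the abundant form in liver. Chka averaged 14.8 FPKM over the 6 livers, whereas Chkb, the other choline kinase, had 0 to 15 counts in a library. Pcyt1b, the second choline cytidylyl transferase, had 0 to 14 counts against 512 to 1297 for Pcyt1a. A count of 0 in HCD replicate 3 allows up to 0.215 CPM. Lpcat3 exceeded Lpcat1, whose enzyme is best known from lung surfactant, 42.2-fold to 84.7-fold with RD and 91.1-fold to 113.5-fold with HCD. Its ratio to Lpcat2 ranged from 40.5-fold in HCD replicate 1 to 526.0-fold in HCD replicate 3, a wide spread at the low level of Lpcat2, which averaged 0.511 FPKM. Etnk2 was 4.64-fold to 15.4-fold above Etnk1, the widely expressed ethanolamine kinase. Cept1 was 3.33-fold to 6.06-fold above Selenoi, the ethanolamine-specific transferase, but close to Chpt1, the choline-specific one, with ratios from 0.768 to 2.03. Ptdss2 was the minor form, with 0.125 to 0.183 of the level of Ptdss1, which starts from phosphatidylcholine. Pcyt1a had 0.0661 to 0.115 of the level of Pcyt2.

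Of 7 such ratios, that of Lpcat3 to Lpcat1 was the only one whose diets did not overlap. Its log2 value was 5.80 ± 0.53 with RD and 6.65 ± 0.16 with HCD (exact two-sided permutation test, p = 0.1, adjusted p = 0.7). With 3 livers against 3 this test cannot give a p under 0.1, so no ratio could pass. The log2 ratio of Pcyt1a to Pcyt2 was -3.65 ± 0.10 with RD and -3.43 ± 0.43 with HCD (exact permutation test, p = 0.4, adjusted p = 0.7). That difference of 0.22 was 0.06 without HCD replicate 1 and 0.46 without HCD replicate 3. For Ptdss2 to Ptdss1 the log2 ratio was -2.61 ± 0.27 with RD and -2.92 ± 0.08 with HCD. The 3 HCD livers lay within 0.125 to 0.138 as a linear ratio, and RD replicate 2 lay among them at 0.132. The unadjusted p of the other 4 ratios was 0.3 to 1.0 by the same exact test.

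In the comparison of the diets, no member passed the test. With the quasi-likelihood test of edgeR and p-values adjusted by Benjamini-Hochberg, 428 of 13105 genes (3.27%) had an adjusted p under 0.05, and 0 of the 8 enzymes were among them. At an unadjusted p of 0.05 or less there were 4 of 8, with Chka, Lpcat3 and Mfsd2a higher and Pcyt2 lower with HCD, against 20.9% of all genes tested. The same 4 were those whose RD and HCD livers did not overlap in CPM, against 27.6% of all genes. DESeq2, which passed 6.97% of the genes it tested, gave an adjusted p under 0.05 to Chka, Lpcat3 and Mfsd2a. Because the 8 were chosen with earlier results of these data known, these shares describe them and test nothing. The median log2 difference was 0.18 over the 8 enzymes and 0.01 over all genes. CPM here are scaled by TMM, which sets a common level for most genes across libraries.

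Mfsd2a brings lysophosphatidylcholine into cells and is known in liver as a gene induced by fasting. Whether food intake played a part was not tested. Mfsd2a had the largest difference of the 8 and, relative to its mean, the largest spread. Its levels were 8.84, 2.23 and 9.46 CPM in RD replicates 1 to 3 and 41.1, 14.6 and 38.6 CPM in HCD replicates 1 to 3. Every HCD liver was above every RD liver, but HCD replicate 2 was far below the other HCD livers and RD replicate 2, with 32 counts, was the lowest of all. The log2 difference was 2.18 ± 0.53 (SE; 95% interval 0.96 to 3.39; edgeR, adjusted p = 0.0658). Without HCD replicate 1 it was 1.93 (adjusted p = 0.117), and without HCD replicate 2 it was 2.51 and passed the edgeR test (adjusted p = 0.0493). DESeq2 gave 2.18 (adjusted p = 0.0401).

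Lpcat3 is a known target of the sterol-sensing receptor LXR and the main acyltransferase of the liver Lands cycle. Its level was 73.1, 79.2 and 94.4 CPM in the RD livers and 110.4, 129.7 and 123.4 CPM in the HCD livers. The HCD livers lay close together and all above the RD livers. HCD minus RD on the log2 scale was 0.56 ± 0.14 (SE; 95% interval 0.23 to 0.88; edgeR, adjusted p = 0.0731), or a 1.47-fold higher level. It was 0.62 without HCD replicate 1 (adjusted p = 0.0746 by edgeR) and 0.48 to 0.67 when any 1 liver was left out. By DESeq2 the difference was 0.55 (adjusted p = 0.0304). Lpcat3 shares 334 exon bases with Emg1 on the opposite strand, a gene at 13.4 FPKM with a log2 difference of 0.25 (adjusted p = 0.354 by edgeR). Whether reads were counted by strand is not given, so reads of that stretch cannot be told apart.

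Chka, the first enzyme of the choline branch, had 67.2, 92.3 and 104.8 CPM with RD and 113.4, 152.2 and 194.6 CPM with HCD. The groups did not overlap, although RD replicate 3 and HCD replicate 1 lay close together. On the log2 scale the difference was 0.80 ± 0.23 (SE; 95% interval 0.27 to 1.33; edgeR, adjusted p = 0.102), a 1.74-fold higher level. It was 0.98 without HCD replicate 1 (adjusted p = 0.0544) and 0.58 without HCD replicate 3 (adjusted p = 0.234), both by edgeR. DESeq2 gave 0.79 (adjusted p = 0.0112).

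**Figure D2:**
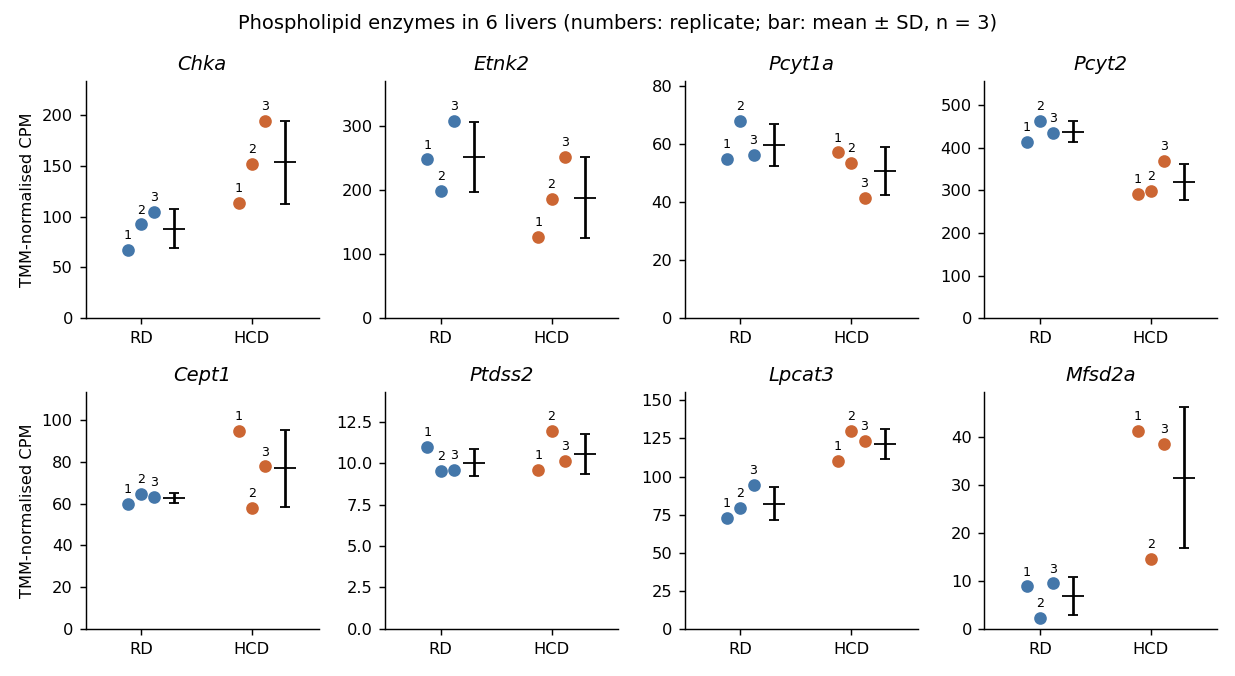
TMM-normalised CPM of each enzyme in the 3 RD livers (blue) and 3 HCD livers (orange), numbered by replicate, on axes that start at 0; the bar beside each group is its mean ± SD. Chka, Lpcat3 and Mfsd2a are higher and Pcyt2 is lower in every HCD liver, whereas the other 4 enzymes overlap between diets.

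The next enzymes of the choline branch overlapped between the diets. Pcyt1a had 54.9, 68.0 and 56.3 CPM with RD and 57.1, 53.4 and 41.5 CPM with HCD. The groups overlapped, and HCD replicate 3 was the lowest. edgeR put the log2 difference at -0.24 ± 0.16 (SE; 95% interval -0.60 to 0.13; edgeR, adjusted p = 0.436). It was -0.33 without HCD replicate 1 and -0.12 without HCD replicate 3. Pcyt1a shares 567 exon bases with Slc51a on the other strand, but Slc51a averaged 0.136 FPKM.

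Cept1, the last step of both branches, was narrow with RD (59.7, 64.6 and 63.4 CPM) and wide with HCD (94.6, 58.0 and 77.8 CPM). HCD replicate 2 lay below all RD livers and HCD replicate 1 was the highest. This gave a log2 difference of 0.30 ± 0.18 (SE; 95% interval -0.11 to 0.70; edgeR, adjusted p = 0.379), and it was 0.12 without HCD replicate 1. Its opposite-strand neighbour Dennd2d, with 771 shared exon bases, had 1.34 FPKM and a log2 difference of 0.34 (adjusted p = 0.532 by edgeR).

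In the ethanolamine branch, both members had log2 differences below 0. Pcyt2 had 413.5, 463.5 and 435.5 CPM with RD and 291.9, 298.2 and 367.9 CPM with HCD. All HCD livers were below all RD livers, and HCD replicate 3 was nearest to them. The log2 difference was -0.45 ± 0.15 (SE; 95% interval -0.80 to -0.11; edgeR, adjusted p = 0.142). Without HCD replicate 1 it was -0.39, and DESeq2 gave -0.47 (adjusted p = 0.0508). Pcyt2 had the most counts of the 8, with 4326 to 10030 counts in a library and a coefficient of variation of 5.74% with RD and 13.2% with HCD. Etnk2, the step before it, had 248.0, 198.9 and 308.7 CPM with RD and 126.9, 186.3 and 252.3 CPM with HCD. Its groups overlapped widely, and HCD replicate 1 was the lowest. HCD minus RD on the log2 scale was -0.42 ± 0.26 (SE; 95% interval -1.02 to 0.18; edgeR, adjusted p = 0.4), and it was -0.20 without HCD replicate 1. Etnk1, its relative, gave -0.68 ± 0.28 (SE; adjusted p = 0.212 by edgeR), -0.55 without HCD replicate 1, and -1.11 without HCD replicate 2, where it passed edgeR (adjusted p = 0.0355).

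Ptdss2 was nearly level between the diets at low counts. It had 10.96, 9.56 and 9.60 CPM with RD and 9.60, 11.9 and 10.1 CPM with HCD. The ranges overlapped, and HCD replicate 2 was the highest of the 6 livers. On the log2 scale the difference was 0.07 ± 0.18 (SE; 95% interval -0.35 to 0.49; edgeR, adjusted p = 0.859), and its sign turned without HCD replicate 2, at -0.033, and was 0.14 without HCD replicate 1. Ptdss1 had a log2 difference of 0.37 ± 0.16 (SE) and an adjusted p of 0.23 by edgeR, with 0.46 without HCD replicate 1.

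**Figure D3:**
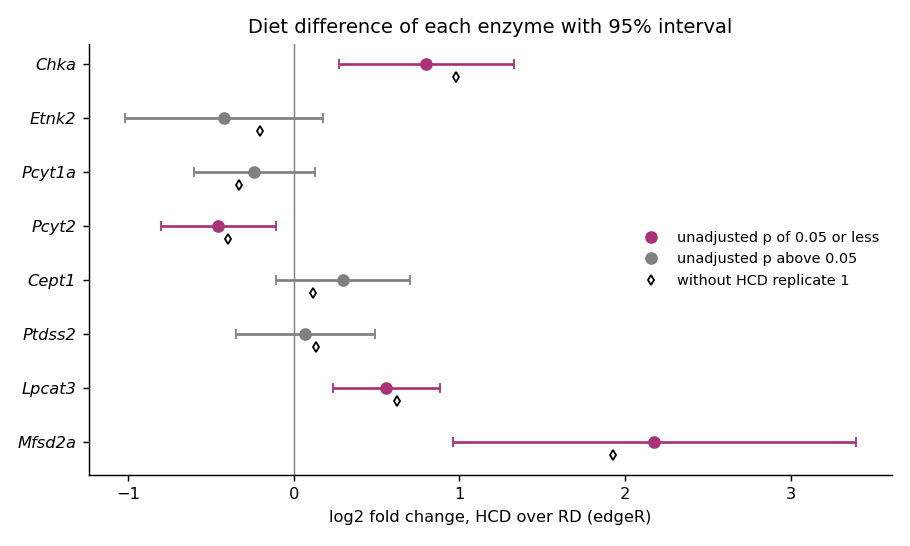
Log2 fold change of HCD over RD for each enzyme with its 95% interval from edgeR (circles and bars) and the value without HCD replicate 1 (diamonds). The intervals of Chka, Lpcat3 and Mfsd2a lie above 0 and that of Pcyt2 lies below 0 before adjustment for 13105 genes, and no adjusted p is under 0.05.

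Promoter windows of RefSeq on GRCm38.p6, reaching from 250 bases before a gene's start to 50 after it, were found for 7 members in 11 windows; Pcyt2 had none. The 250 bases before the start are shown for the 3 enzymes that were higher in every HCD liver, and for Pcyt1a because its window holds a sterol regulatory site. Capitals mark the motifs searched on both strands: the sterol regulatory site TCACNCCAC, the E-box CACGTG, the CCAAT box CCAAT and the GC box GGGCGG, where GC boxes may overlap one another. Also searched, on both strands, were 2 copies of AGGTCA on 1 strand spaced by 4 bases, the form LXR binds, or by 1 base.
Chka, chr19:3851523-3851772, plus strand:
Chka: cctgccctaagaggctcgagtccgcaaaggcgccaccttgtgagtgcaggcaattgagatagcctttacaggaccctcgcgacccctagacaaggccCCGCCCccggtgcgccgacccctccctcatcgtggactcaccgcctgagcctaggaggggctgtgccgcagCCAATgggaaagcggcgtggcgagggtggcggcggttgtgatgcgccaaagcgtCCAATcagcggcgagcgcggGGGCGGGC
Lpcat3, chr6:124662854-124663103, plus strand:
Lpcat3: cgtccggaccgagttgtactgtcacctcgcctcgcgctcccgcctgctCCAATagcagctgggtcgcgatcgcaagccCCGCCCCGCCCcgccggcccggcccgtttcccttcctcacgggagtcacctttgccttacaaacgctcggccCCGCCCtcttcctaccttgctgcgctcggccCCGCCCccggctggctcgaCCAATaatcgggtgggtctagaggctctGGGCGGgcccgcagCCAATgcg
Mfsd2a, chr4:122961189-122961438, minus strand:
Mfsd2a: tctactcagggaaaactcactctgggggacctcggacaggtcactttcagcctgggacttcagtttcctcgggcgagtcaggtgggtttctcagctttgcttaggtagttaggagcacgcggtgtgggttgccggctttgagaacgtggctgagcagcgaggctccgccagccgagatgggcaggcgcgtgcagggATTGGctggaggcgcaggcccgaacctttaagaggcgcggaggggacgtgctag
Pcyt1a, chr16:32430671-32430920, plus strand:
Pcyt1a: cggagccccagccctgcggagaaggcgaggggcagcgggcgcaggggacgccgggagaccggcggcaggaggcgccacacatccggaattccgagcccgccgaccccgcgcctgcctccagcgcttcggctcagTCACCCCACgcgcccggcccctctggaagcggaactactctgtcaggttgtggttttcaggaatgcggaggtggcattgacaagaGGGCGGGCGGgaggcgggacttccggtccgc

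The Lpcat3 window was the densest of the 11, with 4 CCAAT boxes and 6 GC boxes, of which 1 of each lies in the 50 bases after the start, and the Chka window held 2 CCAAT boxes and 3 GC boxes. The Mfsd2a window held 1 CCAAT box, 54 bases before the start, and no GC box. The Pcyt1a sterol regulatory site begins 116 bases before the start and lies also in the overlapping second window of that gene. Of all 32851 windows, 1.24% held that site, 37.4% a CCAAT box, 35.7% a GC box and 7.15% an E-box, which none of the 11 windows had. Among windows of the genes tested here, these shares were 1.18%, 37.6%, 60.2% and 9.82%. Spaced pairs with exactly these letters were in no member's window and in 0.0152% (4 bases) and 0.0396% (1 base) of all windows. Over the 11 windows the share of G and C ran from 27.3% in the third window of Cept1 to 71.0% in that of Lpcat3. These matches describe letters and were not tested against the counts.

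Around these enzymes, 68 other genes of phospholipid metabolism in 10 functional lists were in the tables, and 63 had enough counts to test. Only Crls1 passed the edgeR test, with an adjusted p of 0.0256. Crls1 is cardiolipin synthase, the last step to the signature lipid of the inner mitochondrial membrane. It had 31.6, 38.4 and 36.2 CPM with RD and 85.5, 61.4 and 62.6 CPM with HCD. All HCD livers were well above all RD livers, and HCD replicate 1 was the highest. The log2 difference was 0.98 ± 0.17 (SE; 95% interval 0.60 to 1.36). Crls1 lost the call by edgeR without RD replicate 1 (adjusted p = 0.13), RD replicate 2 (adjusted p = 0.104), RD replicate 3 (adjusted p = 0.0729) or HCD replicate 3 (adjusted p = 0.0599), with log2 differences of 0.90 to 1.04. It kept it without HCD replicate 1 (0.81, adjusted p = 0.0335 by edgeR). Unadjusted p was 0.05 or less for 14 of the 63, with 8 higher and 6 lower (20.9% of all genes), and 12 did not overlap between diets, 6 in each direction (27.6% of all genes). The median log2 difference of the 63 was -0.005, near that of all genes. DESeq2 passed 4 of them (6.97% of all genes it tested). These were Crls1 (adjusted p = 8.28e-05), Abcb4 (log2 difference 0.57, adjusted p = 0.0288), Pnpla6 (-0.89, adjusted p = 0.0131) and Chdh (-0.54, adjusted p = 0.0486), all by DESeq2. The last 3 were named after their values were seen, and by edgeR their adjusted p was 0.107, 0.0958 and 0.126. Abcb4 moves phosphatidylcholine into bile, Pnpla6 breaks down phosphatidylcholine and lysophosphatidylcholine, and Chdh begins the oxidation of choline.

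By function, log2 differences of the 8 genes for CDP-diacylglycerol, phosphatidylinositol and cardiolipin had a median of 0.41, with 6 above 0 and 2 below. Those of the 9 transfer and export genes had a median of 0.21, and their most abundant gene, Stard10, a phospholipid transfer protein, had 707.5 FPKM and a log2 difference of 0.21 (adjusted p = 0.51 by edgeR), or 0.10 without HCD replicate 3. The 6 choline and lysophospholipid carriers had a median of 0.31, led in level by Spns1, the lysosomal lysophospholipid exporter, with 15.5 FPKM and a log2 difference of 0.11 (0.01 to 0.25 with 1 liver left out, lowest without HCD replicate 3 and highest without HCD replicate 1). The list of the choline branch also took in Pemt, which methylates phosphatidylethanolamine outside that branch. Pemt had 224.4 FPKM and a log2 difference of 0.21 (95% interval -0.14 to 0.56, adjusted p = 0.467 by edgeR), and Chpt1 gave 0.20. The Chpt1 value was 0.01 without HCD replicate 3, 0.06 without RD replicate 3 and 0.41 without HCD replicate 1. Etnppl, which degrades phosphoethanolamine, led the ethanolamine list at 31.3 FPKM with 0.18 on the log2 scale (-0.10 to 0.67 with 1 liver left out). Selenoi gave -0.05 (-0.11 to 0.01 with 1 liver left out).

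Among the 6 other acyltransferases tested the median was -0.11. Lpgat1, the most abundant at 31.9 FPKM, had a log2 difference of -0.36 (95% interval -0.71 to -0.01; adjusted p = 0.228 by edgeR), and Lpcat1 and Lpcat2 had -0.36 and 0.99 with intervals of -1.34 to 0.61 and -0.75 to 2.74. Lpcat2 had 0.23 without HCD replicate 1, and Lpcat1 had -0.16 without RD replicate 3 and -0.62 without RD replicate 2. All 4 ether lipid genes tested were below 0, with a median of -0.44. Gnpat, the first enzyme of that route, had 18.6 FPKM and -0.09, which turned to 0.027 without RD replicate 1. The 17 genes of phospholipid breakdown had a median of -0.02, and Pla2g12b, at 65.5 FPKM, had 0.03. Its sign turned without RD replicate 2 (-0.032) and with the gene-length trend removed (-0.16). Of the 5 choline oxidation genes 4 were below 0, with a median of -0.30; Bhmt, which passes a methyl group of betaine to homocysteine, was the most abundant at 375.7 FPKM and had -1.40 (95% interval -2.85 to 0.04; adjusted p = 0.25 by edgeR). The Bhmt value was -2.54 without HCD replicate 3 (adjusted p = 0.0647 by edgeR) and -1.01 without HCD replicate 2. The 2 genes of phosphatidylserine synthesis and decarboxylation had 0.27 and 0.37. In the edgeR fit described above, with all livers and the filter on low counts, no list other than that of Crls1 held a gene that passed.

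**Figure D4:**
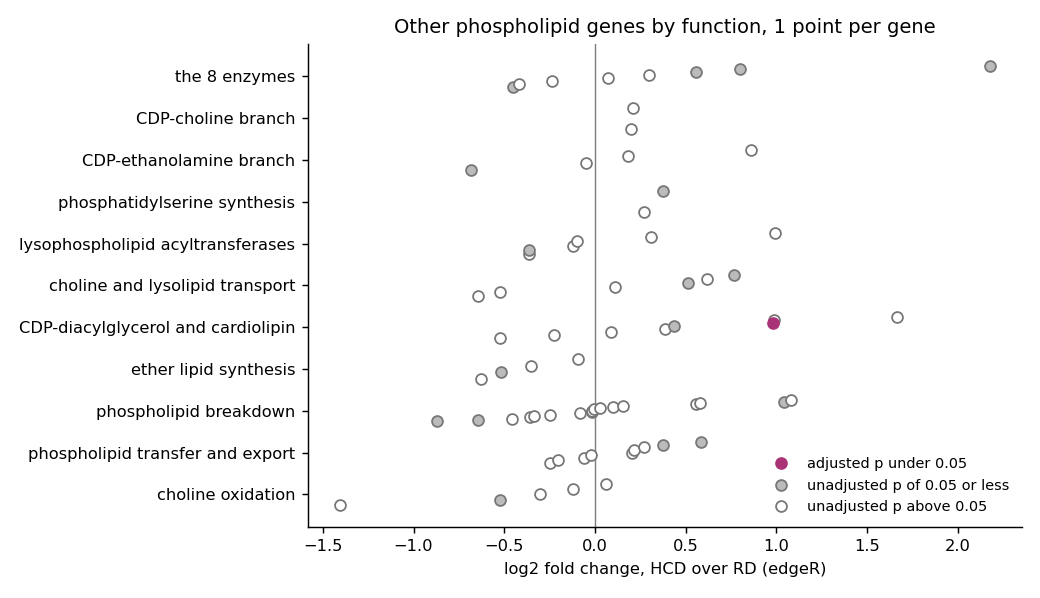
Log2 fold change of HCD over RD, 1 point per tested gene, for the 8 enzymes and 10 lists of related genes, with shading for unadjusted p of 0.05 or less and colour for adjusted p under 0.05. Crls1, at 0.98, is the coloured point, and each list holds points near 0 or on both sides of it except the ether lipid genes, all below 0, and the choline branch and phosphatidylserine lists, whose 2 genes each lie above it.

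The members' directions held across 16 alternative fits, which left out each liver in turn or changed the scaling, filter or test, except that of Ptdss2. Over the 10 alternative fits that kept all livers, log2 differences were 0.71 to 0.98 for Chka, 0.49 to 0.59 for Lpcat3, 2.02 to 2.30 for Mfsd2a and -0.53 to -0.41 for Pcyt2. Leaving out 1 liver gave wider ranges, of 0.58 to 0.98, 0.48 to 0.67, 1.77 to 2.51 and -0.58 to -0.39. For Cept1 it gave 0.12 to 0.46, for Etnk2 -0.70 to -0.20 and for Pcyt1a -0.33 to -0.12.

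**Figure D5:**
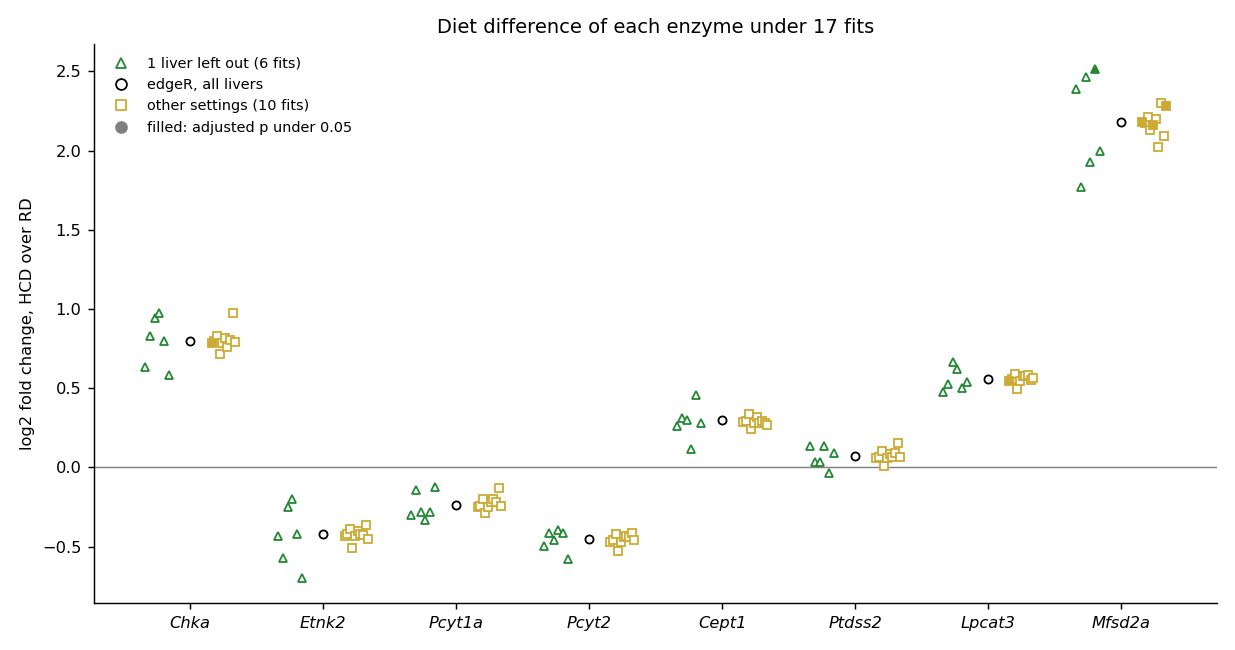
Log2 fold change of HCD over RD for each enzyme with all livers (circle), with 1 liver left out (triangles, 6 fits) and under other scalings, filters, tests or terms (squares, 10 fits), filled where the adjusted p is under 0.05. Mfsd2a moves most, from 1.77 to 2.51 when 1 liver is left out, and Ptdss2 stays near 0.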

How the data were processed

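Liver RNA of 6 C57BL/6J mice, 3 on RD and 3 on HCD, was sequenced and analysed by Novogene. The authors deposited read counts per gene, and FPKM. FPKM match merged exon lengths of GENCODE M21 to within 0.1% of a constant for 95.1% to 95.3% of genes, with a library total that is not stated. The log2 fold changes and p-values that the authors deposited for HCD against RD were not used. The submitters' processing notes name STAR, HTSeq, DESeq2, edgeR and GRCm39, without roles; no source used here gives the strand setting. The tables hold no positions, so promoter windows come from RefSeq on GRCm38.p6 and none was converted.

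Groups follow the labels. Column names carry a different prefix for each diet, with no batch given. Counts were tested in R 4.3.3 with edgeR 4.0.16 (filterByExpr by diet, TMM factors 0.886 to 1.07, glmQLFit and glmQLFTest without covariates), adjusted over 13105 genes. A gene is called at an adjusted p under 0.05. Alternatives used DESeq2 1.42.0, limma 3.58.1 on log2(FPKM + 1) and log2(FPKM + 0.1), other scalings and filters, a gene-length offset, a replicate block and each liver left out. The edgeR, DESeq2 and limma tests were checked on simulated counts, but the permutation test was not. The simulated differences were larger than those of most members, and the simulated spread was smaller. Power for smaller differences was not checked. Ratios of FPKM within a liver were compared by exact two-sided permutation tests (scipy 1.17.1) with Benjamini-Hochberg adjustment over 7 ratios. Chkb and Pcyt1b were left out of the ratios because a liver had 0 counts.

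The members and lists were chosen with earlier results of these data known. The rule for named genes took the members, their related enzymes, each other listed gene that passed the main edgeR test, and the most abundant gene of each list. Abcb4, Chdh, Pnpla6 and Pla2g6, which passed only in other fits, as well as the opposite-strand neighbours and the marker genes that passed were named outside that rule; Mboat2 and Slc5a7 are not in the tables used here. Depth was 13771630 to 23129576 counts per library, and the spread between livers (biological coefficient of variation 27.8%) limits precision more than counting does. The labels do not state that livers of a diet were handled separately, so p-values measure the spread between these samples, which may in part be technical. Floors for a count of 0 (3 counts) and intervals of counts cover counting error only. No transcript of another gene aligned to a member over 200 bases at 90% identity (minimap2 2.31) apart from opposite-strand neighbours.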

Additional observations from a re-analysis of the deposited data

How the results depend on the processing

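Over all genes, 428 were called; the count was 992 with DESeq2, 649 with no filter on low counts, 219 and 275 with limma on log2(FPKM + 1) and log2(FPKM + 0.1), 251 with the gene-length trend removed, 36 to 335 with 1 liver left out, 40 at an adjusted p under 0.01 and 2739 where unadjusted p was at most 0.05. Of the 8 enzymes, 0 were called; the count was 3 with DESeq2, 1 (Mfsd2a, adjusted p = 0.0101) with no filter on low counts by edgeR, 0 to 1 with 1 liver left out and 4 where unadjusted p was at most 0.05. Of the other 63 genes, 1 was called; the count was 4 with DESeq2, 2 with no filter, 0 with library sizes alone, 0 with limma on log2(FPKM + 1), 0 to 2 with 1 liver left out, 0 at an adjusted p under 0.01 and 14 where unadjusted p was at most 0.05. The log2 difference turned sign for Ptdss2 without HCD replicate 2 (-0.033, the lowest of -0.033 to 0.14 over the 6 fits without 1 liver) and for Selenoi without HCD replicate 1 (0.01, in a range of -0.11 to 0.01) and with the gene-length trend removed (0.12). It also turned for Etnppl without RD replicate 1 (-0.10, in a range of -0.10 to 0.67 over the fits without 1 liver), for Gnpat without RD replicate 1 (0.027, in a range of -0.17 to 0.027) and for Pla2g12b without RD replicate 2 (-0.032, in a range of -0.032 to 0.07), with library sizes alone (-0.035) and with the gene-length trend removed (-0.16). The cause was not tested. Of the other 63 genes, edgeR also passed Etnk1 without HCD replicate 2 (-1.11, adjusted p = 0.0355), Pla2g6 without HCD replicate 1 (0.80, adjusted p = 0.0486) and Pnpla6 without RD replicate 3 (-1.10, adjusted p = 0.0468) and with no filter (-0.89, adjusted p = 0.039); Pla2g6 was named after its values were seen. The 49 alternative diet differences of the 7 log2 ratios moved by less than the larger of the 2 SDs within a diet, but some by more than the RD SD, and the sign turned for Cept1 to Chpt1 (0.10; -0.33 without HCD replicate 1 and -0.04 without RD replicate 1), Lpcat3 to Lpcat2 (0.12; -0.93 without HCD replicate 3 and -0.03 without RD replicate 3) and Etnk2 to Etnk1 (0.31; -0.16 without HCD replicate 3).

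The labels do not state whether replicate numbers pair the livers. Deviations of same-numbered livers correlated at -0.08, 0.09 and -0.04, and those of differently numbered livers at -0.11 to 0.13. These correlations do not settle whether livers of 1 number shared a day or a batch. With a replicate block, 136 genes were called, with 1 of the 8 enzymes (Mfsd2a, 2.28, adjusted p = 0.0129 by edgeR) and 0 of the other 63 genes among them.

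With 3 livers a diet, the 95% interval of a single enzyme was 0.65 (Lpcat3) to 2.43 (Mfsd2a) wide on the log2 scale.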
